A study of Mus musculus with 3008 samples.

Results

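Spleen regulatory T cells (Tregs) that held transcripts of Ikzf2, the gene of the transcription factor Helios, were compared with spleen Tregs in which none were counted. Helios-positive cells were those with 2 or more unique molecular identifiers (UMIs, each standing for 1 captured transcript) of Ikzf2, and Helios-negative cells those with 0, among spleen cells with 1500 or more UMIs in all. Of the 3008 cells in the series, 20.5% were spleen cells. The rule took 5.29% of all cells as Helios-positive and 7.18% as Helios-negative spleen cells. Another 96 spleen cells held 1 Ikzf2 UMI and stand between the sides. The cells were chosen by their Ikzf2 UMIs, so the values of Ikzf2 are a description, and it was left out of the totals and ratios.

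Cells came from the spleen or the colon lamina propria of male B6 mice, aged 7 months, with a Foxp3-Ires-Gfp reporter, and all groups shared that genotype, sex and age. Spleens were taken apart mechanically and colons with collagenase and dispase, and live cells were sorted as DAPI- TCRb+ CD4+ GFP+ before inDrops, a droplet method for single-cell RNA sequencing. There was 1 spleen library and there were 2 colon libraries, and the labels name no animal. Cells of 1 library are not replicates, so no test was made between the sides. Genes are described by size, and the 95% intervals in brackets cover counting error only. They take UMIs as independent, although 1 cell can hold many UMIs of a gene.

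Helios is a zinc finger protein of the Ikaros family that binds DNA and is found in most Tregs that form in the thymus. It helps Tregs keep their identity under inflammation, and it is often used, with the surface receptor neuropilin-1, to tell thymus-derived Tregs from those induced in other tissues. Spleen Tregs also range from resting cells, which circulate through lymphoid organs, to activated effector cells, which carry receptors for entering tissues.

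Ikzf2 (chromosome 1, 69531214 to 69687245, minus strand, mm10) had a level of 1850 CPM (UMIs per 1000000 UMIs of the cells summed) in the Helios-positive cells. Over all spleen cells of this depth its level was 761.7 CPM. Helios-positive cells made up 33.8% of them (29.5 to 38.2, exact Clopper-Pearson), cells with 1 UMI 20.4% and Helios-negative cells 45.9%. Just inside the threshold stood 36 cells with 2 UMIs, and the fullest cell held 18. A cell with 0 UMIs may still have held the transcript or the protein, because most transcripts of a cell are not captured.

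**Figure D1:**
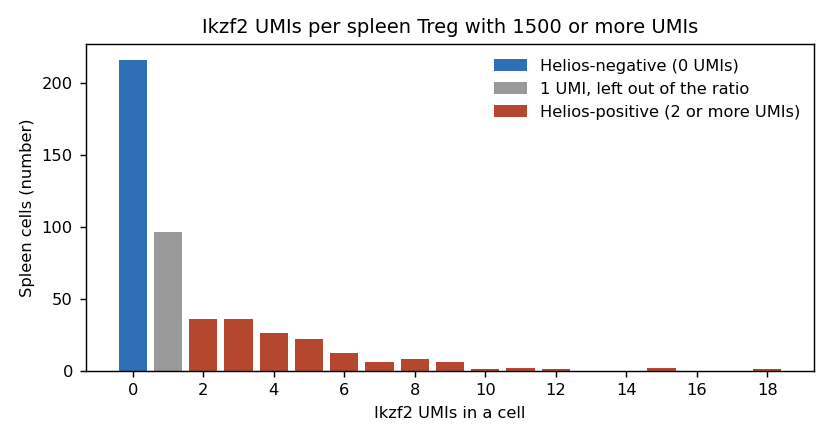
Number of spleen cells (vertical axis) by the number of Ikzf2 UMIs in the cell (horizontal axis), for cells with 1500 or more UMIs. The cells at 0 are the Helios-negative side, the 96 cells at 1 were left out of the ratio, and the cells from 2 to 18 are the Helios-positive side.

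The cells bore the marks of the sort. Among spleen cells of this depth, Cd3d was detected in 59.2%, Ctla4 in 42.9%, Cd4 in 36.9%, Foxp3 in 36.7% and Il2ra in 31.8%, while the B cell gene Ms4a1 and the CD8 T cell gene Cd8a were each detected in 1 cell (0.212%). The summed level of the B cell list was 113.6 CPM in Helios-positive and 58.1 CPM in Helios-negative cells, with 4 of its 10 genes at 0. Macrophage or dendritic cell genes stood at 92.9 and 111.8 CPM with 6 of 10 at 0, among them Lyz2, C1qa and Csf1r. Granulocyte genes stood at 36.1 and 49.5 CPM, all from Csf3r, CD8 T cell or NK cell genes at 224.6 and 152.7 CPM, plasma cell genes at 2.58 and 2.15 CPM, and conventional helper T cell genes at 10.3 and 15.1 CPM. Erythroid or platelet genes had 5 UMIs, or 12.9 CPM, in Helios-positive cells and none in Helios-negative cells. On the Helios-negative side 3 UMIs would make 6.45 CPM.

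The sides differed in depth and in breadth. Helios-positive cells summed to 387381 UMIs and Helios-negative cells to 465052 without Ikzf2, with a median of 2243 and 1974 UMIs per cell. The shallowest spleen cell kept had 1503 UMIs and the deepest left out 1499. After each cell was thinned to 1500 UMIs, which left out none of them, the median Helios-negative cell held 654.5 genes. The median was 69.5 genes higher on the Helios-positive side and 30.5 genes higher in cells with 1 Ikzf2 UMI. Ribosomal protein genes took 26.01% of UMIs in Helios-positive cells, 29.62% with 1 Ikzf2 UMI and 31.02% in Helios-negative cells, and 81 of 85 measured ribosomal protein genes had a ratio below 1, with a median log2 ratio of -0.24. Between spleen and the colon libraries, 5 and 11 cell barcodes were shared. No doublet caller was run; 18 spleen cells lay above 4072 UMIs, 8 of them Helios-positive and 4 Helios-negative. The part that depth, gene number, ribosomal share or other cell types have in the ratios was not tested.

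Helios-positive spleen Tregs held more transcripts of effector genes and fewer of a small set of resting T cell genes. S100a6, a calcium-binding protein gene, stood at 2068 against 683.8 CPM, Klrg1, the gene of a lectin-like receptor of differentiated lymphocytes, at 356.2 against 98.9 CPM, and Igfbp4, whose secreted product binds insulin-like growth factors, at 10.3 against 137.6 CPM. Among 2194 genes with at least 60 UMIs over both sides, 14.6% were at least 1.5-fold higher in Helios-positive cells and 5.42% were lower by that factor. With a 2-fold threshold the numbers were 85 genes (3.87%) and 26 genes (1.19%). The median log2 ratio of all 2194 genes was 0.08. With totals that leave out ribosomal protein genes the 1.5-fold shares were 10.8% and 7.98% and the median -0.02, and with TMM scaling, which aims at a common centre, they were 10.5% and 8.16% and the median -0.03. The excess of higher over lower genes thus moved with the scaling.

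**Figure D2:**
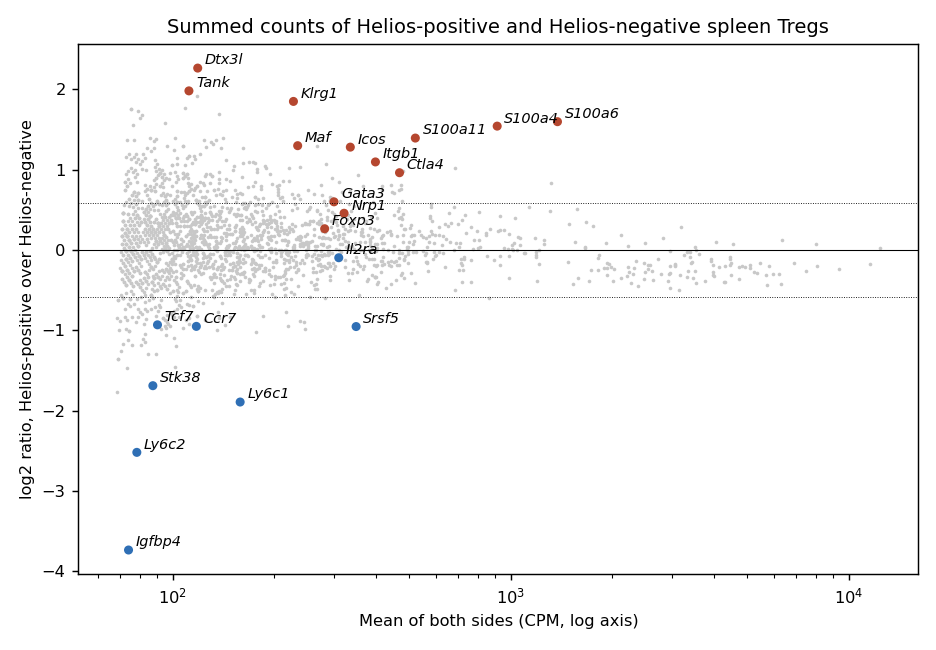
Log2 ratio of Helios-positive over Helios-negative spleen cells (vertical axis) against the mean CPM of both sides (horizontal log axis) for 2194 genes in grey, with named genes in red (ratio above 1) or blue (below 1) and the 1.5-fold lines dotted. S100a6, S100a4 and Klrg1 stand far above the line of no difference at high or middle levels, and Igfbp4, Ly6c2 and Ly6c1 far below it.

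Most measured genes of the activated effector list were higher in Helios-positive cells. Of 24 listed genes 17 passed the minimum of 60 UMIs, 15 of them were at least 1.5-fold higher in Helios-positive cells and 0 lower, beside 14.6% and 5.42% of all genes, and their median log2 ratio was 1.10 beside 0.08 for all genes. The 7 under the minimum are not in these counts. The list was chosen with earlier results of these data known, so its counts and median are a description and not a test.

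S100a6 (chromosome 3, 90612882 to 90624181, plus strand) had a log2 ratio of 1.60 (1.41 to 1.79). At equal depth it was detected in 49.1% of Helios-positive and in 1 in 4 Helios-negative cells, and without thinning in 54.7% and 26.9%. S100a4 (chromosome 3, 90603771 to 90606045, plus strand), the neighbouring gene of a related protein linked to cell motility, stood at 1357.8 and 466.6 CPM, a log2 ratio of 1.54 (1.31 to 1.78). It was detected in 43.4% and 16.2% of cells at equal depth. S100a11, another member of the family, stood at 756.4 and 288.1 CPM (log2 ratio 1.39, 1.09 to 1.70), and S100a10, the partner of annexin A2, at 1688 and 948.3 CPM. S100a6 and S100a4 were thus seen both in more cells and at a higher summed level, and single cells held as many as 50 UMIs of S100a6 on the positive side and 28 on the negative.

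Receptor genes of effector cells followed. Klrg1 (chromosome 6, 122270596 to 122282882, minus strand) had its UMIs in 33 Helios-positive and 14 Helios-negative cells, a log2 ratio of 1.85 (1.36 to 2.36). Icos, a costimulatory receptor gene, stood at 474.99 and 195.7 CPM (log2 ratio 1.28, 0.91 to 1.66) and was detected in 32.7% and 16.2% of cells at equal depth. Itgb1, the gene of the integrin beta 1 chain, stood at 542.1 and 253.7 CPM (log2 ratio 1.10, 0.76 to 1.43). Cd44, an adhesion receptor gene of activated T cells, stood at 141.98 and 60.2 CPM (log2 ratio 1.24, 0.56 to 1.95). In cells without S100a4 and Itgb1 UMIs the log2 ratio of Cd44 was -0.39 on 24 UMIs.

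Among transcription factor genes of the list, Maf stood at 333.005 and 135.5 CPM (log2 ratio 1.30, 0.85 to 1.76), Id2, an inhibitor of E proteins, at 188.4 and 75.3 CPM (1.32, 0.72 to 1.95), and Batf, an AP-1 partner, at 162.6 and 86.01 CPM (0.92, 0.32 to 1.53). The members short of 1.5-fold were Srgn, a granule proteoglycan gene, at a log2 ratio of 0.50 and Crip1, a LIM domain protein gene, at 0.54; both were named after their values were seen. Both are among the most abundant of the list, at 1838 and 1340 CPM in Helios-positive cells.

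The other genes with the highest ratios had fewer UMIs. Dtx3l, a ubiquitin ligase gene (chromosome 16, 35926511 to 35939151, minus strand), had 76 UMIs in 34 Helios-positive cells and 19 in 19 Helios-negative cells, a log2 ratio of 2.26 (1.52 to 3.07). At equal depth 15.1% and 7.41% of cells held it. Tank, which encodes an adaptor of TRAF signalling, stood at 178.1 and 45.2 CPM (log2 ratio 1.98, 1.26 to 2.76). H1f0, a linker histone gene of cells that have stopped dividing, stood at 185.9 and 49.5 CPM (1.91, 1.22 to 2.66). Myo1f, a myosin gene of blood cells, was at 209.1 and 64.5 CPM and was detected in 16.98% and 4.17% of cells at equal depth. Glrx, the gene of the redox enzyme glutaredoxin, stood at 379.5 and 146.2 CPM, and Atp6v0e, a proton pump subunit gene, at 379.5 and 154.8 CPM. Trappc3, Mrpl14, Ccdc23 and Serpina3g, with 88, 61, 61 and 64 UMIs over both sides, completed the 15 highest genes at log2 ratios of 1.76, 1.76, 1.76 and 1.73. Serpina3g, a serine protease inhibitor gene of activated lymphocytes, lay in 15 and 14 cells, and 1 Helios-positive cell held 12 of its UMIs.

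On the low side, resting T cell genes led. Igfbp4 (chromosome 11, 99041244 to 99054392, plus strand) had 4 UMIs in 2 Helios-positive cells and 64 UMIs in 19 Helios-negative cells, a log2 ratio of -3.74 (-5.66 to -2.31). A single Helios-negative cell held 20 of the 64. At equal depth 0.629% and 8.33% of cells held it. Ly6c1 (chromosome 15, 75044018 to 75048830, minus strand), the gene of a surface antigen of resting and memory T cells, stood at 67.1 and 249.4 CPM (log2 ratio -1.89, -2.57 to -1.27) and was detected in 6.29% and 19.4% of cells at equal depth. Ly6c2, its neighbour, stood at 23.2 and 133.3 CPM (-2.52, -3.72 to -1.50). The pair is nearly identical in sequence, so the split of UMIs between them is uncertain, but both were lower in Helios-positive cells.

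Of 18 genes of the resting lymphoid-organ list, 16 were measured, 0 were higher and 7 at least 1.5-fold lower, beside 14.6% and 5.42% of all genes, with a median log2 ratio of -0.42. Tcf7, a transcription factor gene of resting and memory-like T cells, stood at 61.95 and 118.3 CPM (log2 ratio -0.93, -1.69 to -0.22). Ccr7, the gene of the chemokine receptor for entry into T cell zones, stood at 80.02 and 154.8 CPM (-0.95, -1.61 to -0.33). Other genes of circulation differed less. Klf2, a transcription factor gene of circulating T cells, was at 565.3 and 612.8 CPM, and S1pr1, the receptor gene for leaving lymphoid organs, at 420.8 and 348.3 CPM, both with intervals that included 0. The list was therefore split between genes well below 1 and genes near 1. Lef1 and Dapl1 fell under the minimum, with 17 and 26 UMIs over both sides.

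The remaining genes of the 15 lowest stand in none of the gene lists. Srsf5, a splicing factor gene, stood at 237.5 and 460 CPM (log2 ratio -0.95, -1.32 to -0.60) and had the most UMIs of them. Stk38, a kinase gene, stood at 41.3 and 133.3 CPM, and Tardbp, an RNA-binding protein gene, at 54.2 and 148.4 CPM. Nop58, a ribosome assembly gene, was at 49.05 and 120 CPM, and Pou2f2, a transcription factor gene of lymphocytes, at 61.95 and 141.9 CPM. Ndufab1, Adnp, Qars, Pole4, Fam105a, Add3 and Treml2 had log2 ratios between -1.77 and -0.94.

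**Figure D3:**
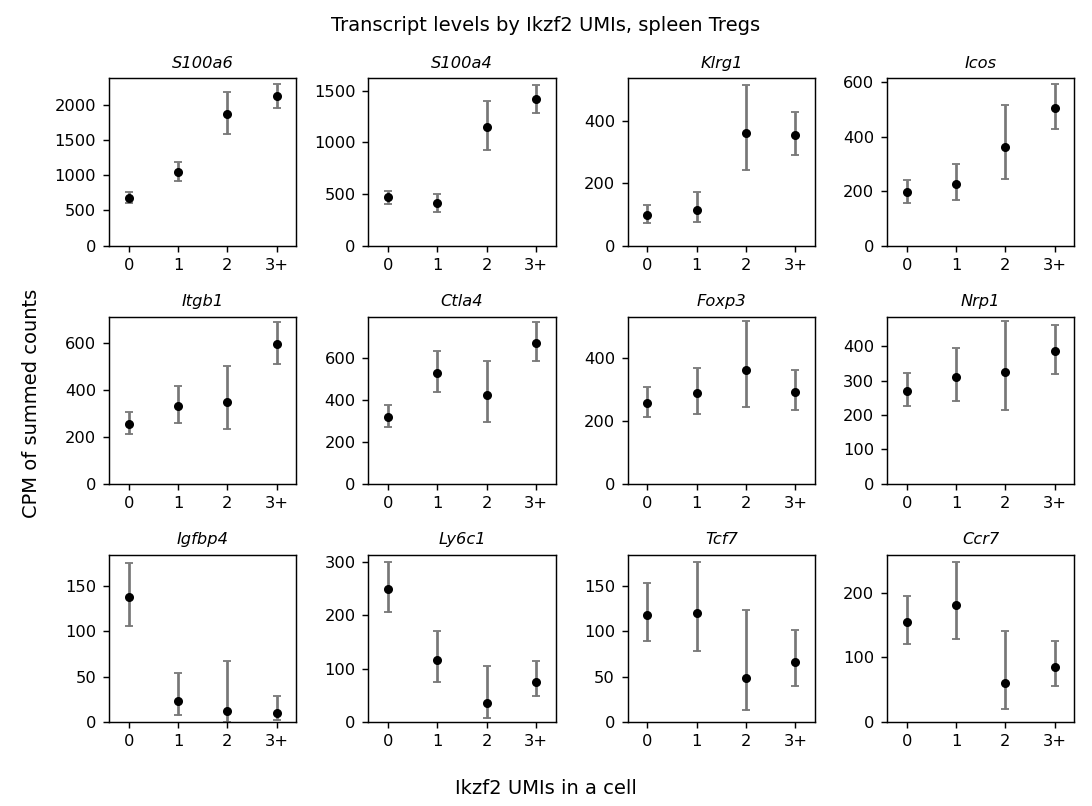
CPM of summed counts (vertical axes, each from 0) for 12 genes in spleen cells with 0, 1, 2 or 3 and more Ikzf2 UMIs; bars are exact Poisson intervals. S100a4 and Klrg1 stand near the Helios-negative level in cells with 1 Ikzf2 UMI, while Igfbp4 is already low there.

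Cells just outside the threshold, with 1 Ikzf2 UMI, stood between the sides for 12 of the 15 highest and 12 of the 15 lowest genes. Over all genes past 1.5-fold, 60.1% of the higher and 53.8% of the lower ones lay between. All these genes were picked by the ratio of the sides. That makes a place between them likely for cells not used in the picking. Where they stood depended on the gene. S100a6 was at 683.8, 1044.3, 1866 and 2123 CPM in cells with 0, 1, 2 and 3 or more Ikzf2 UMIs. S100a4 was at 466.6, 408.4, 1144 and 1416 CPM, and Klrg1 at 98.9, 116.03, 361.2 and 354.9 CPM, both near the Helios-negative level in cells with 1 UMI. Igfbp4 went the other way, at 137.6, 23.2, 12.04 and 9.86 CPM, and was already low with 1 UMI. Ly6c1 was at 249.4, 116.03, 36.1 and 75.6 CPM.

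Genes that define Tregs differed less than effector genes. Foxp3, the lineage transcription factor, had equal UMI numbers on both sides, which made 307.2 and 255.9 CPM, a log2 ratio of 0.26 (-0.12 to 0.64). Il2ra, the high-affinity chain of the interleukin-2 receptor, stood at 299.4 and 320.4 CPM (-0.10, -0.46 to 0.26), and Izumo1r, the gene of the folate receptor 4 protein of resting Tregs, at 1153.9 and 1227.8 CPM. Ctla4, an inhibitory receptor gene, stood at 620 and 318.2 CPM (0.96, 0.66 to 1.27) and was detected in 38.4% and 25.9% of cells at equal depth. Il2rb, the beta chain, had a log2 ratio of 0.49 (0.13 to 0.84), Tnfrsf18, the gene of the receptor GITR, 0.44 (0.14 to 0.74), Tnfrsf4, the gene of OX40, 0.26 (-0.03 to 0.54), and Capg, an actin-capping gene, 0.50 (0.13 to 0.88). Of 13 genes of this list 11 were measured, 2 were at least 1.5-fold higher (Ctla4 and Lrrc32) and 0 lower, with a median of 0.44; over all genes 14.6% were higher, so that the count lies near that share. Lrrc32, which holds latent TGF-beta on the cell surface, stood at 111.002 and 66.7 CPM, but its log2 ratio was -0.077 where Ikzf2 UMIs were counted after thinning.

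Genes used to tell the origin of Tregs were few at this depth. Nrp1, the gene of neuropilin-1, stood at 371.7 and 270.9 CPM (log2 ratio 0.46, 0.10 to 0.81) and was detected in 27.04% and 18.5% of cells at equal depth. Of 9 genes of thymus-derived Tregs 3 were measured: next to Nrp1, Cd83, a surface gene of activated lymphocytes, was at 0.70 (0.03 to 1.38) and Socs2, a cytokine signalling inhibitor, at -0.05, which makes 1 higher, 0 lower and a median of 0.46. Gpr83 had 18 and 36 UMIs and Tigit 7 and 11, both under the minimum. Of 7 genes of peripherally induced Tregs, Maf was higher and Igfbp4 lower, and the other 5 were not measured. Over all genes 14.6% were higher and 5.42% lower, with a median of 0.08. Neither origin list held enough measured genes to describe a direction.

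Among the Ikaros relatives of Helios 1 of 4 listed genes was measured. Ikzf1, the gene of Ikaros, stood at 160 and 148.4 CPM (log2 ratio 0.11, -0.41 to 0.63). Ikzf3, the gene of Aiolos, had 14 and 9 UMIs and Ikzf4, the gene of Eos, 15 and 25, both under the minimum. At equal depth Ikzf3 was detected in 6.92% (3.504 to 12.04) of Helios-positive and 1.39% (0.29 to 4.01) of Helios-negative cells, and Ikzf4 in 3.77% and 4.17%. The share of cells with Ikzf3 at equal depth rests on 11 and 3 cells and on a single random draw of UMIs. Without thinning 8.81% and 3.70% of cells held it, a smaller contrast.

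Receptor and signalling genes were mixed. The counts of the 4 lists that follow stand beside 14.6% of all genes higher and 5.42% lower. In the TNF receptor and NF-kB list 2 of 10 measured genes were higher and 0 lower, with a median of 0.29: Tnfrsf1b, the gene of TNF receptor 2, stood at 296.9 and 146.2 CPM (log2 ratio 1.02, 0.58 to 1.48) and Birc3, an inhibitor of cell death, at 118.7 and 60.2 CPM. Nfkb1 stood at 219.4 and 307.5 CPM (-0.49, -0.89 to -0.09), but was detected in 18.2% and 18.5% of cells at equal depth. Its level was 307.5, 222.8, 60.2 and 262.9 CPM in cells with 0, 1, 2 and 3 or more Ikzf2 UMIs. In the TCR complex list 1 of 14 was higher and 0 lower with a median of 0.21; Cd4 was the higher one, at 397.5 and 221.5 CPM (0.84, 0.47 to 1.22), while Cd3e and Cd3g were at 0.41 and 0.31. Of the TCR-induced early genes 1 of 8 was higher (Cd83) and 1 lower (Myc, a growth regulator, at -0.85, -1.51 to -0.21), with a median of 0.06. At equal depth Myc was detected in 6.29% and 6.48% of cells. Cd5, a gene whose level follows TCR signal strength, was at -0.04. In the IL-2 receptor and STAT5 list 1 of 12 was higher, Stat5b at 0.70 (0.19 to 1.23), and 0 lower, with a median of 0.09. Stat5b was at 120.4, 97.5, 361.2 and 151.2 CPM in cells with 0, 1, 2 and 3 or more Ikzf2 UMIs. Its level was thus highest just inside the threshold. The TCR-induced, IL-2, AP-1 and MHC class I medians, all under 0.10, turned below 0 with TMM scaling and with totals that leave out ribosomal protein genes, as these shift all genes alike.

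Of the interferon response genes 3 of 10 were higher and 0 lower, with a median of 0.36, and all genes had 14.6% higher and 5.42% lower. The trafficking and AP-1 counts below are to be read beside the same shares. Zbp1, a nucleic acid sensor gene, stood at 118.7 and 58.1 CPM (log2 ratio 1.03, 0.32 to 1.77), and Ifi203 at 237.5 and 156.97 CPM (0.60, 0.14 to 1.06). Isg20, at 108.4 and 64.5 CPM, was the third, and its log2 ratio was -0.14 where Ikzf2 UMIs were counted after thinning. Of the trafficking receptors 2 of 11 were higher, Cd44 and Itgb1, and 1 was lower, Ccr7, with a median of 0.27; Itgb7, a chain of the gut homing integrin, was at 0.50 (0.10 to 0.89). In the AP-1 and heat-shock list Dusp1, a phosphatase of MAP kinases, stood at 635.03 and 322.5 CPM (0.98, 0.68 to 1.28) and Jun at 100.7 and 172.02 CPM (-0.77, -1.36 to -0.20), which were the 1 higher and the 1 lower of 13, with a median of 0.02. Hsp90aa1, a chaperone gene, was at -0.58. The stress genes therefore did not share a direction.

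Cell cycle, helper fate and MHC class I genes add little to the contrast. Their counts stand beside 14.6% of all genes higher and 5.42% lower. Of 15 cell cycle genes 4 were measured, 1 higher and 0 lower, with a median of 0.21; Mcm6, a replication gene, was the higher one at 0.59 (-0.12 to 1.30), and its log2 ratio was -0.17 in cells without S100a4 and Itgb1 UMIs. Pcna stood at 134.2 and 172.02 CPM and H2afz, a histone variant gene, at 1064 and 793.5 CPM. Of 16 helper fate genes Gata3, which encodes a regulator of type 2 responses and of tissue Tregs, was the one measured, at 361.4 and 238.7 CPM (0.60, 0.23 to 0.97); it was detected in 36.5% and 20.4% of cells at equal depth, and 6 of the 16 genes were at 0. Of 9 measured MHC class I genes 1 was higher, Psmb8, an immunoproteasome subunit, at 555.01 and 337.6 CPM (0.72, 0.41 to 1.02), and 0 lower, with a median of 0.08. B2m, the shared light chain, stood at 6642 and 6098 CPM, and the ratio of H2-K1, 0.10, turned to -0.01 with TMM scaling and to a value just below 0 with totals that leave out ribosomal protein genes.

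**Figure D4:**
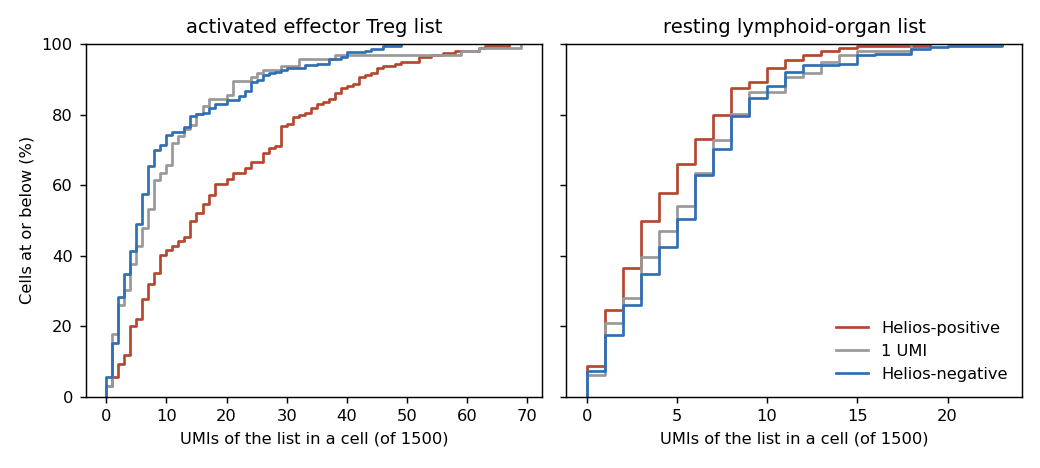
Share of spleen cells (vertical axis, percent) with at most the given number of list UMIs (horizontal axis) after each cell was thinned to 1500 UMIs, for the activated effector list (left) and the resting lymphoid-organ list (right). The Helios-positive curve lies to the right on the left panel, with a median of 15 UMIs against 7 with 1 Ikzf2 UMI and 6 in Helios-negative cells, and slightly to the left on the right panel.

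Single cells of the sides overlapped widely. At equal depth the median Helios-positive cell held 15 UMIs of the activated effector list, with quartiles of 6 and 29 and a range of 0 to 67. The median Helios-negative cell held 6, with quartiles of 2 and 11.5 and a range of 0 to 49. Cells with 1 Ikzf2 UMI had a median of 7. For the resting list the medians were 4, 5 and 5 in Helios-positive, 1 UMI and Helios-negative cells, so that the effector genes set the sides apart far more than the resting genes did. Both lists were chosen with earlier results of these data known.

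The effector state moved with the sides. S100a4 or Itgb1, the genes that mark effector-like spleen Tregs, were detected at equal depth in 54.7% (46.6 to 62.6) of Helios-positive cells, 32.3% (23.1 to 42.6) of cells with 1 Ikzf2 UMI and 22.7% (17.3 to 28.9) of Helios-negative cells. The sides were therefore also compared within cells that held a UMI of either gene (59.1% of Helios-positive and 26.4% of Helios-negative cells without thinning) and within cells that held none, the first chosen after seeing the data. The median log2 ratio of the activated effector list, without these 2 genes, was 0.37 among cells with such a UMI and 0.57 among cells without. In these strata 13 and 9 of its genes had 60 UMIs.

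Some genes kept a sizeable ratio in both strata, and those given here were picked after their values were seen. Klrg1 was at 0.88 (0.33 to 1.47) among cells with a UMI of S100a4 or Itgb1 and 2.13 (1.01 to 3.33) among cells without. Ctla4 was at 0.81 (0.34 to 1.31) and 0.96 (0.52 to 1.39), and Icos at 0.78 (0.29 to 1.29) and 1.06 (0.41 to 1.70). Ly6c1 was at -1.37 (-2.25 to -0.52) and -2.91 (-4.57 to -1.63). S100a6 was smaller in both, at 0.76 (0.55 to 0.97) and 0.58 (0.02 to 1.13).

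Other values lay further apart between the strata. Il2ra, near 0 with all cells together, was at -1.27 (-2.01 to -0.55) among cells with a UMI of S100a4 or Itgb1 and 0.85 (0.43 to 1.27) among cells without. Ccr7 was at 2.46 (0.42 to 5.60), from 20 and 2 UMIs, and -1.48 (-2.54 to -0.55). Cd83 was at -0.65 and 1.87, and Myc at -2.32 and 0.23. Nrp1 was at -0.17 (-0.62 to 0.28) and 0.40 (-0.26 to 1.05). The difference between strata was not tested, and for Nrp1 the intervals of the strata overlap.

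The same split was made in both colon libraries, which the rule for spleen cells did not use and which differ from spleen in tissue and dissociation, factors that cannot be told apart. Of cells with 1500 or more UMIs, 28.8% were Helios-positive and 53.8% Helios-negative in colon 1, and 30.6% and 52.4% in colon 2. In colon 1, 9.58% of 2296 genes were at least 1.5-fold higher and 10.5% lower in Helios-positive cells, and in colon 2, 6.23% and 7.22% of 5747. Across genes the log2 ratios of spleen had a Pearson r of -0.02 with colon 1 (1820 genes) and 0.03 with colon 2 (2169 genes), while the colon libraries had 0.25 with each other (2289 genes). Genes are not independent replicates, and these values describe the libraries.

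**Figure D5:**
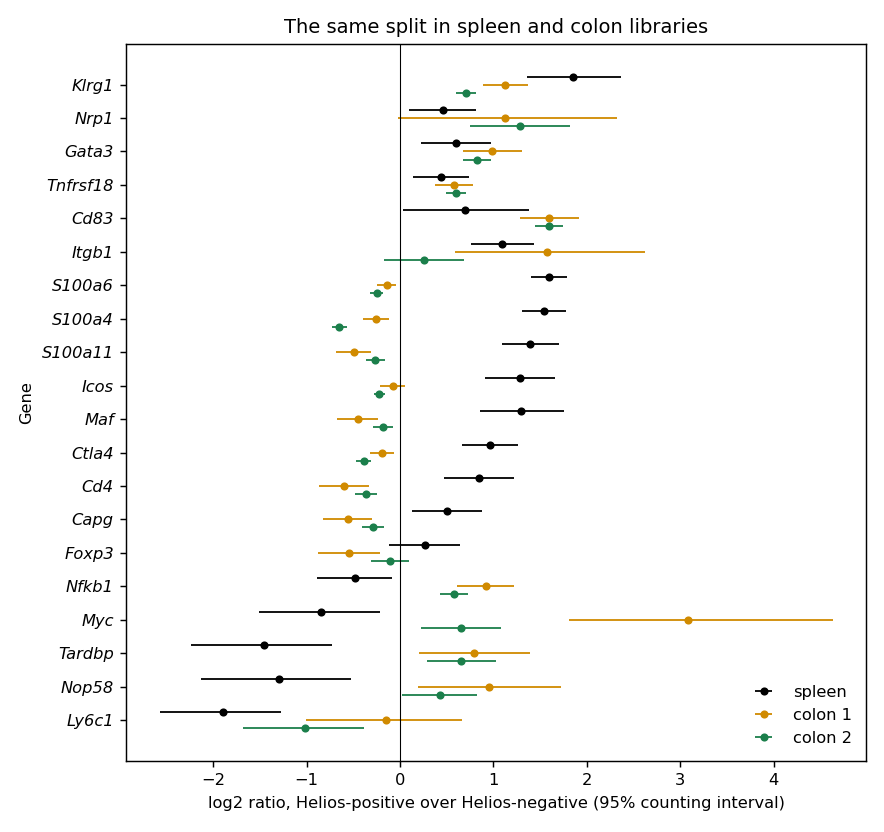
Log2 ratio of Helios-positive over Helios-negative cells (horizontal axis) for 20 genes in spleen (black), colon 1 (orange) and colon 2 (green), with bars for the 95% counting intervals. Klrg1, Gata3, Tnfrsf18 and Cd83 lie above 0 in the 3 libraries, while S100a6, S100a4, S100a11, Maf, Ctla4, Cd4 and Capg lie above 0 in spleen and below 0 in both colon libraries.

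Of 1815 genes measured in the 3 libraries, 27.2% had their ratio on the same side in all, and 1.82% also had intervals without 0. In 29.5% spleen stood on one side and both colon libraries on the other. Of 66 named genes measured in the 3 libraries, 22 stood on the same side, 9 of them with intervals without 0. Those described here were picked after their values were seen. Klrg1 had log2 ratios of 1.85 in spleen, 1.13 (0.89 to 1.37) in colon 1 and 0.71 (0.60 to 0.82) in colon 2. Gata3 was at 0.60, 0.99 (0.67 to 1.30) and 0.82 (0.67 to 0.98), and Tnfrsf18 at 0.44, 0.58 (0.37 to 0.78) and 0.60 (0.49 to 0.71). Nrp1 was at 0.46, 1.13 (-0.02 to 2.33) and 1.28 (0.75 to 1.82), with 29 UMIs in colon 1, under the minimum, and Cd83 at 0.70, 1.60 (1.28 to 1.92) and 1.60 (1.45 to 1.74).

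The effector list did not carry over. Its median log2 ratio was 1.10 in spleen, -0.15 in colon 1, where 2 of its 21 measured members passed 1.5-fold upward and 3 downward, and -0.20 in colon 2, where 2 of 24 were higher and 4 lower. S100a4 was at 1.54 in spleen, -0.25 (-0.39 to -0.11) in colon 1 and -0.65 (-0.73 to -0.57) in colon 2. Icos was at 1.28, -0.08 (-0.21 to 0.05) and -0.22 (-0.28 to -0.16), and Ctla4 at 0.96, -0.19 (-0.32 to -0.07) and -0.39 (-0.47 to -0.31). Foxp3 was at 0.26, -0.54 (-0.88 to -0.21) and -0.10 (-0.31 to 0.10). On the low side Ly6c1 was at -1.89, -0.15 (-1.001 to 0.66, from 57 UMIs, under the minimum) and -1.02 (-1.68 to -0.39). The TNF receptor and NF-kB list, at 0.29 in spleen, had medians of 0.51 and 0.57 in colon 1 and colon 2, with 6 of 15 genes higher and 0 lower in each. The colon counts of both lists stand beside 9.58% of all genes higher and 10.5% lower in colon 1. In colon 2 these shares were 6.23% and 7.22%.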

How the data were processed

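The authors deposited 1 table of UMI counts per gene and cell, 23725 genes by 3008 cells. TopHat2, SAMtools and the mm10 build are named without versions, per the submitters' processing notes; how UMIs were collapsed, which annotation was used and how cells were picked is not given in the sources used here. Cells were grouped by library as labelled, which gave 617 spleen cells, 471 of them with 1500 or more UMIs and, of these, 159 Helios-positive and 216 Helios-negative, and 0 columns were left out. The deposited table of cell labels was not used here.

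Counts were summed over the cells of each side, without Ikzf2, and scaled to CPM. Intervals are exact Poisson for levels, exact conditional binomial for ratios and exact Clopper-Pearson for shares. A gene was measured with 60 UMIs over both sides and counted as higher or lower from 1.5-fold. Shares of cells rest on counts thinned to 1500 UMIs per cell (seed 11). Named genes were the 15 highest and 15 lowest by the interval end nearest to no difference, without genes of ribosomal proteins, mitochondria, immunoglobulins or T cell receptors and without unnamed models, genes chosen as landmarks, and up to 4 members of each of 17 gene lists. The members and lists were chosen with earlier results of these data known. Python 3.11.15, numpy 2.4.6, scipy 1.17.1 and pandas 2.3.3 were used, with edgeR 4.0.16 in R 4.3.3 for TMM factors. A few genes are not reported here. The ratio step was tested on simulated data in which all cells of a side shared the same profile. Such data hold no clustering of UMIs in single cells, so the test cannot speak to the spread between cells. Gene positions come from GENCODE vM21 on mm10. Alternatives covered the depth minimum, the Ikzf2 threshold, scaling, weighting of cells, the filter on low counts, the fold, possible doublets, cells with markers of other types and cells with or without S100a4 and Itgb1 UMIs.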

Additional observations from a re-analysis of the deposited data

Results flagged for a closer look

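For 13 of 83 named genes measured in spleen, many of them named for their spleen ratio, the ratio of Helios-positive over Helios-negative cells pointed one way in spleen and the other way in both colon libraries, with 95% counting intervals that left out no difference in the 3 libraries. Of 66 named genes measured in the 3 libraries 12 did so (18.2%). Over the 1815 genes measured in the 3 libraries 2.04% did so, and 1.82% stood on the same side in all with such intervals. The difference between tissues was not tested, since each tissue and dissociation has no replicate animals in the labels. Genes above 0 in spleen and below 0 in colon are given with their log2 ratios in spleen, colon 1 and colon 2. They were Dtx3l, at 2.26, -0.85 and -0.56, S100a6, at 1.60, -0.14 and -0.25, and S100a4, at 1.54, -0.25 and -0.65. S100a11 was at 1.39, -0.49 and -0.26, and Glrx at 1.38, -0.28 and -0.24. Maf was at 1.30, -0.45 and -0.18, Ctla4 at 0.96, -0.19 and -0.39, Cd4 at 0.84, -0.60 and -0.36, and Capg at 0.50, -0.56 and -0.28. In spleen cells with a UMI of S100a4 or Itgb1 the ratio of Capg was 0.02 (-0.47 to 0.52). In spleen cells without such UMIs it was 0.29 (-0.40 to 0.96). Genes below 0 in spleen and above 0 in colon were Tardbp, at -1.45, 0.80 and 0.66, Nop58, at -1.30, 0.95 and 0.42, Nfkb1, at -0.49, 0.92 and 0.58, and Myc, at -0.85, 3.09 and 0.65. For Nfkb1 and Myc the share of spleen cells hardly differed. At equal depth Nfkb1 was detected in 18.2% of Helios-positive and 18.5% of Helios-negative spleen cells, and Myc in 6.29% and 6.48%. Myc had 33 and 6 UMIs in colon 1, under the minimum of 60, and its spleen ratio was 0.23 in cells without S100a4 and Itgb1 UMIs.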

How the results depend on the processing

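No paired analysis was possible because the spleen cells come from 1 library and no test was made between the sides. Genes at least 1.5-fold higher and lower, 14.6% and 5.42% of measured genes as reported, were 15.4% and 5.78% in cells with 2000 or more UMIs, where fewer genes were measured, 20.2% and 9.69% with 30 UMIs over both sides, 9.29% and 1.58% with 120 UMIs, and 31.9% and 21.6% with no filter; at 2-fold they were 3.87% and 1.19%. With TMM scaling 8.16% were lower. Cells without S100a4 and Itgb1 UMIs gave 10.9% higher, and cells with a UMI of either gave 11.6% higher and 6.12% lower. As numbers of genes, each of these differed from the reported one by over 1.5 times. The median of the activated effector list was 0.57 without such UMIs and 0.37 with them. The thymus-derived list, at 0.46, was at 0.61 without possible doublets and 0.61 without cells with markers of other types, and, on 1 gene, -0.17 in cells with a UMI of S100a4 or Itgb1. Called log2 ratios changed sign for Ccr7 (2.46) and Cd83 (-0.65) in cells with such a UMI, for Myc (0.23), Mcm6 (-0.17) and Cd44 (-0.39) in cells without, and for Lrrc32 (-0.077) and Isg20 (-0.14) where Ikzf2 UMIs were counted after thinning. The cause was not tested. For the 13 lists with 3 or more measured genes, 190 medians under the alternatives stayed on their side of 1.5-fold, and the 5 given above crossed it or moved by more than that factor; the other 4 lists were not followed. Of these, helper fate rests on Gata3, at 0.60 as reported and 0.27 in cells without S100a4 and Itgb1 UMIs. Of the named gene ratios 1069 stayed within their intervals, 77 moved and 7 changed sign, and 88 shares of cells left their intervals, with stronger thinning or without thinning. Depth limits the genes under 60 UMIs, and with 1 library the spread between animals is unknown.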

Other observations

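Of 14 genes of suppressive effectors 2 were measured, Ctla4 and Lrrc32, both higher, beside 14.6% of all genes. The ratio of Lrrc32 changed sign where Ikzf2 UMIs were counted after thinning. The other 12 lay under the minimum of 60 UMIs, and 6 of them are given here as values only. Il10, which encodes an interleukin that restrains inflammation, had 43 UMIs in 10 Helios-positive cells and 5 UMIs in 3 Helios-negative cells, a log2 ratio of 3.37 (2.03 to 5.06). Gzmb, the gene of granzyme B, had 39 UMIs in 8 cells and 4 UMIs in 2 cells, a log2 ratio of 3.55 (2.08 to 5.49). These UMIs sat in few cells, so that single cells weigh heavily. Areg, which encodes amphiregulin, a growth factor of tissue repair, had 16 UMIs in 9 cells and 5 UMIs in 5 cells, and Pdcd1, an inhibitory receptor gene, 21 UMIs in 9 cells and 7 UMIs in 7 cells. Nt5e, which encodes the adenosine-producing enzyme CD73, had 31 and 28 UMIs, and Ebi3, a subunit gene of interleukin-35, 15 and 16.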
